A study of Homo sapiens with 9 samples.

Results

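The 10 genes described here are regulators and targets of the hypoxia-inducible factors (HIFs): HIF1A, EPAS1, EGLN1, EGLN3, VEGFA, ADM, NDRG1, ANKRD37, BNIP3 and KDM3A. They were taken by symbol from the deposited count table, which holds 30000 rows, and all 10 had a row. RNA came from THP-1, a human monocytic leukaemia line. One group of 3 libraries was labelled as cells given ectosomes with the shRNA PKM2_KD (PKM2-knockdown ectosomes), another group of 3 as cells given ectosomes with the shRNA Scramble (scramble ectosomes), and the last group of 3 as Ctrl with no agent named (control). Ectosomes are vesicles shed from the surface of a cell, and here they came from Huh7, a human hepatoma line. The labels do not say which cells carried the shRNA, and it was read here as the Huh7 cells, and PKM2 is an isoform of the glycolytic enzyme pyruvate kinase. The sources used here give no ectosome dose, incubation time or oxygen level. They do not say either whether replicates were separate cultures, so each p-value reflects the spread among these 9 libraries alone, which may be technical.

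HIF is a transcription factor made of an oxygen-regulated alpha subunit, encoded by HIF1A or EPAS1, and the stable partner ARNT. In oxygenated cells the prolyl hydroxylases encoded by EGLN1, EGLN2 and EGLN3 mark the alpha subunit, the VHL protein recognises the mark, and the subunit is degraded, so HIF activity is set largely at the protein level, which these libraries do not measure. When the alpha subunit persists, the factor binds a short DNA motif near its targets, which encode secreted angiogenic and vasoactive factors, mitochondrial and metabolic proteins, histone demethylases and the hydroxylases themselves. In monocytes and macrophages HIF1A RNA is also known to respond to inflammatory signals.

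Libraries held 17744587 to 23864381 counts, and levels are given as CPM, counts scaled to library size with TMM factors, which assume that most genes do not change between libraries. A value with ± is a mean with its SD (n = 3 libraries of the group). All 8 monocytic markers listed were present in every group, at summed levels of 2301 to 2474 CPM with PKM2-knockdown ectosomes, 1647 to 1738 CPM with scramble ectosomes and 1028 to 1324 CPM in control. They did not move together: against control 4 rose and 3 fell with scramble ectosomes (LYZ, CD33 and ITGAM), and 5 rose and 1 fell with PKM2-knockdown ectosomes (LYZ). LYZ, which encodes lysozyme, stood at 39.9 ± 6.50 CPM with PKM2-knockdown ectosomes, 17.6 ± 0.528 CPM with scramble ectosomes and 203 ± 120 CPM in control. Of 12 hepatocyte markers, which RNA carried in from Huh7 cells could show, 6 had a row, and these summed to 41.3 to 47.8, 5.98 to 7.10 and 3.36 to 8.08 CPM in the same groups. SERPINA1 stood at 37.3 ± 3.61, 3.53 ± 0.493 and 2.01 ± 1.64 CPM and APOA2 at 4.81 ± 0.615, 2.27 ± 0.75 and 1.75 ± 0.748 CPM, and both rose with PKM2-knockdown ectosomes against control (17.8-fold and 2.70-fold, adjusted p = 9.93e-06 and 0.0032). APOA1 was lower in that comparison (7.66-fold), but near the floor, with 0.0802 ± 0.0744, 0.252 ± 0.134 and 0.675 ± 0.138 CPM. Those levels are 3, 2 and 0 reads, 9, 3 and 4 reads, and 12, 13 and 15 reads. It passed the filter on low counts only through its level in control, so its p-value is not given. Also under 1 CPM in the mean of every group were TF at 0.806, 0.350 and 0.824 CPM, albumin (ALB) at 0.447, 0.113 and 0.111 CPM and TTR at 0, 0.113 and 0 CPM. The part of these transcripts in the results below was not tested. PKM itself stood at 2310 ± 137 CPM with PKM2-knockdown ectosomes, 3496 ± 108 CPM with scramble ectosomes and 649 ± 194 CPM in control, which does not check the knockdown label because the shRNA is read here as that of the cells that shed the ectosomes.

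Libraries of 1 group were not equally alike in these genes. Control replicate 3 differed from control replicates 1 and 2 with a chi-square per degree of freedom of 46.4 and 43.6, where those replicates differed from each other by 4.999. It was the lowest control for 7 of the 10 genes and for 28 of 38 other hypoxia targets tested, against 42.1% of all genes tested. Scramble replicate 1 was the lowest of its group for 8 of the 10 genes and 32 of those 38 targets, against 35.9% of all genes tested, with smaller differences (median log2 difference from the other scramble libraries -0.23 for the targets, against -0.54 for control replicate 3, pseudocount 0.5 CPM). For the 10 genes, calls that changed when either library was left out are given with and without it. Fold sizes against control use all controls unless stated, and some were smaller in other fits. With PKM2-knockdown ectosomes against control, the lowest log2 fold change over all alternative fits was 1.905 for NDRG1, 0.848 for BNIP3, 1.76 for VEGFA and 4.44 for ADM.

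The DNA before the start of 4 of the genes is shown first, chosen because ANKRD37 was higher with both kinds of ectosomes, BNIP3 and EGLN3 were highest with PKM2-knockdown ectosomes and EGLN1 was lowest with them. Each stretch is the 250 bases before the RefSeq start (GRCh38.p14), on the gene's strand and 5′ to 3′, with ANKRD37 at chr4:185396591-185396840 on the plus strand, BNIP3 at chr10:131981924-131982173, EGLN1 at chr1:231422288-231422537 and EGLN3 at chr14:33951075-33951324 on the minus strand. Capitals mark the core letters of the hypoxia response element, searched as ACGTG and GCGTG on both strands, so that CACGT and CACGC are the same motifs read on the other strand. Where CACGTG is printed, matches on the 2 strands overlap.
ANKRD37: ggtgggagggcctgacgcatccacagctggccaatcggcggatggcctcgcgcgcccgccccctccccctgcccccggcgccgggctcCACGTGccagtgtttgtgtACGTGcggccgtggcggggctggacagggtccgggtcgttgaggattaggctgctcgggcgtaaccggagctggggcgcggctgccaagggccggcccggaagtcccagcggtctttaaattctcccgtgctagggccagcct
BNIP3: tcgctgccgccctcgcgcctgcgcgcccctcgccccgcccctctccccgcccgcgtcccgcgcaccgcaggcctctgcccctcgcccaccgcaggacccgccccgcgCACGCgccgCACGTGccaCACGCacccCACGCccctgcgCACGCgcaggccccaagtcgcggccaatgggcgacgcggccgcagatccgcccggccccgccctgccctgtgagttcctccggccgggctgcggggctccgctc
EGLN1: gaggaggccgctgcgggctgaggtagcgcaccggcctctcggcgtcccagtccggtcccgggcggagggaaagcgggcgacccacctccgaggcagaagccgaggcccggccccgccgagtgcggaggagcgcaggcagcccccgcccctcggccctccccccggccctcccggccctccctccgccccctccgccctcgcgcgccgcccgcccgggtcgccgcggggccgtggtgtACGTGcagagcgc
EGLN3: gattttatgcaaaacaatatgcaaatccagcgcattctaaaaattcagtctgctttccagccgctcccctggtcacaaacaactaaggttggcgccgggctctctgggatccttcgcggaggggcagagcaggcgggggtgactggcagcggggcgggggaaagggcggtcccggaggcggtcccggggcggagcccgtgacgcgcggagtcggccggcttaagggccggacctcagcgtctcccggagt

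ANKRD37 held 3 matches of ACGTG, between 162 and 143 bases before the start. BNIP3 held 6 matches, 2 of ACGTG and 4 of GCGTG, within 143 to 104 bases before the start. EGLN1 held 1 match of ACGTG 13 bases before the start, and EGLN3 held none in this window. RefSeq promoters were at hand for 8 of the 10 genes, and 7 of these held either motif in at least 1 window, GCGTG once each in HIF1A, EPAS1, ADM and both windows of KDM3A. Over 35116 promoter windows of the same length, 18.5% held ACGTG, 32.2% held GCGTG and 43.2% held either, so a match of this kind is common. These letters are a description of the sequence and not evidence of binding.

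**Figure D1:**
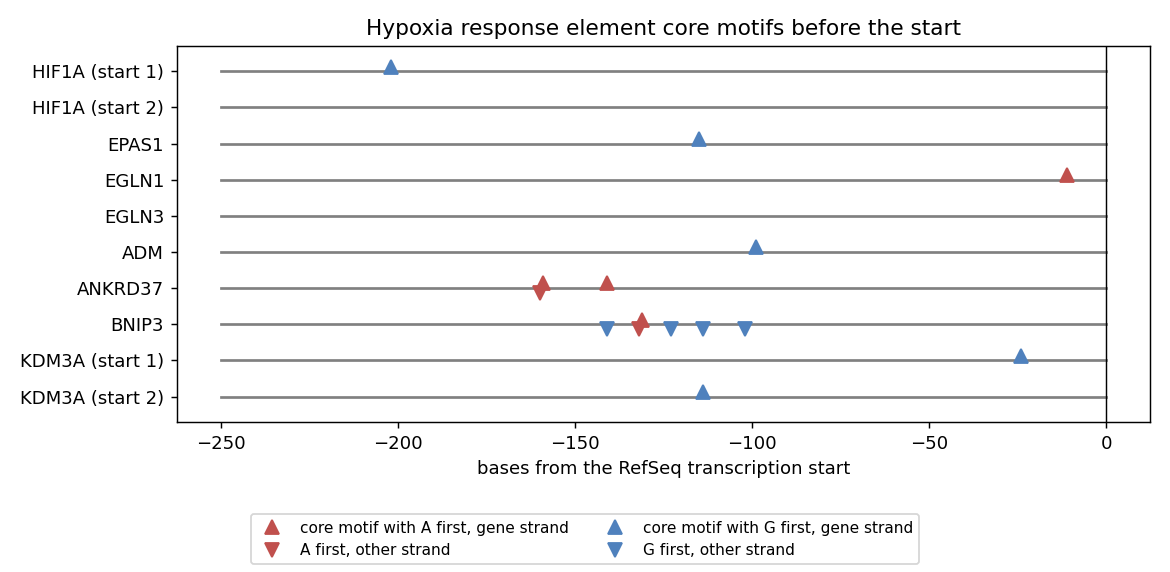
Matches of the hypoxia response element core motif in the 250 bases before each RefSeq start (x axis, bases from the start), with 1 line per start, colour for the first letter of the motif and triangles up or down for the gene's own or the other strand. BNIP3 has 6 matches and ANKRD37 has 3, clustered between 162 and 104 bases before the start, and EGLN3 and the second HIF1A start have none.

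Against control, most of the 10 genes were higher with ectosomes, but the kinds of ectosomes differed in which ones. Differential expression was tested with edgeR's quasi-likelihood test over 18437 rows, and log2FC stands for the log2 fold change, and "rose" or "fell" below means a Benjamini-Hochberg adjusted p under 0.05 over all of them. EGLN3 passed the filter on low counts only through its level with PKM2-knockdown ectosomes, so it is left out of the counts here and described on its own. With scramble ectosomes 7 of the 9 other genes rose and 0 fell, where 67.8% of all genes tested changed in either direction and 34.6% rose. With PKM2-knockdown ectosomes 7 rose and 1 fell against control, where 53.7% of all genes changed, 27.0% rising and 26.7% falling. Between the kinds of ectosomes, 3 were higher and 3 lower with PKM2-knockdown ectosomes, where 61.6% of all genes changed, 31.4% being higher and 30.3% lower. The shares of the 9 genes that changed with scramble ectosomes (77.8%) and between the kinds of ectosomes (66.7%) are near those of all genes, so the counts alone do not set these genes apart. The comparisons with control share the control libraries, and the 10 genes were chosen with earlier results of these data known.

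Without control replicate 3 the counts over these 9 genes were 7 risen and 1 fallen with scramble ectosomes, 7 and 1 with PKM2-knockdown ectosomes, and 3 higher and 4 lower between them. Without scramble replicate 1 they were 7 and 0, 7 and 1, and 2 and 3. Calls over all genes moved as well, from 12492, 9904 and 11365 with all libraries in the same order of comparisons. They were 13640, 10996 and 13617 without control replicate 3, and 11484, 9555 and 10218 without scramble replicate 1. With scramble ectosomes, 7 of the 9 genes lay above control in every library and 0 below, where 71.3% of all genes did not overlap, 36.8% above and 34.6% below. With PKM2-knockdown ectosomes 7 lay above control in every library and 1 below, where 60.5% of all genes did not overlap, 30.7% above and 29.8% below. Between the kinds of ectosomes 3 lay above and 4 below, where 74.5% of all genes did not overlap, 37.4% above and 37.1% below.

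**Figure D2:**
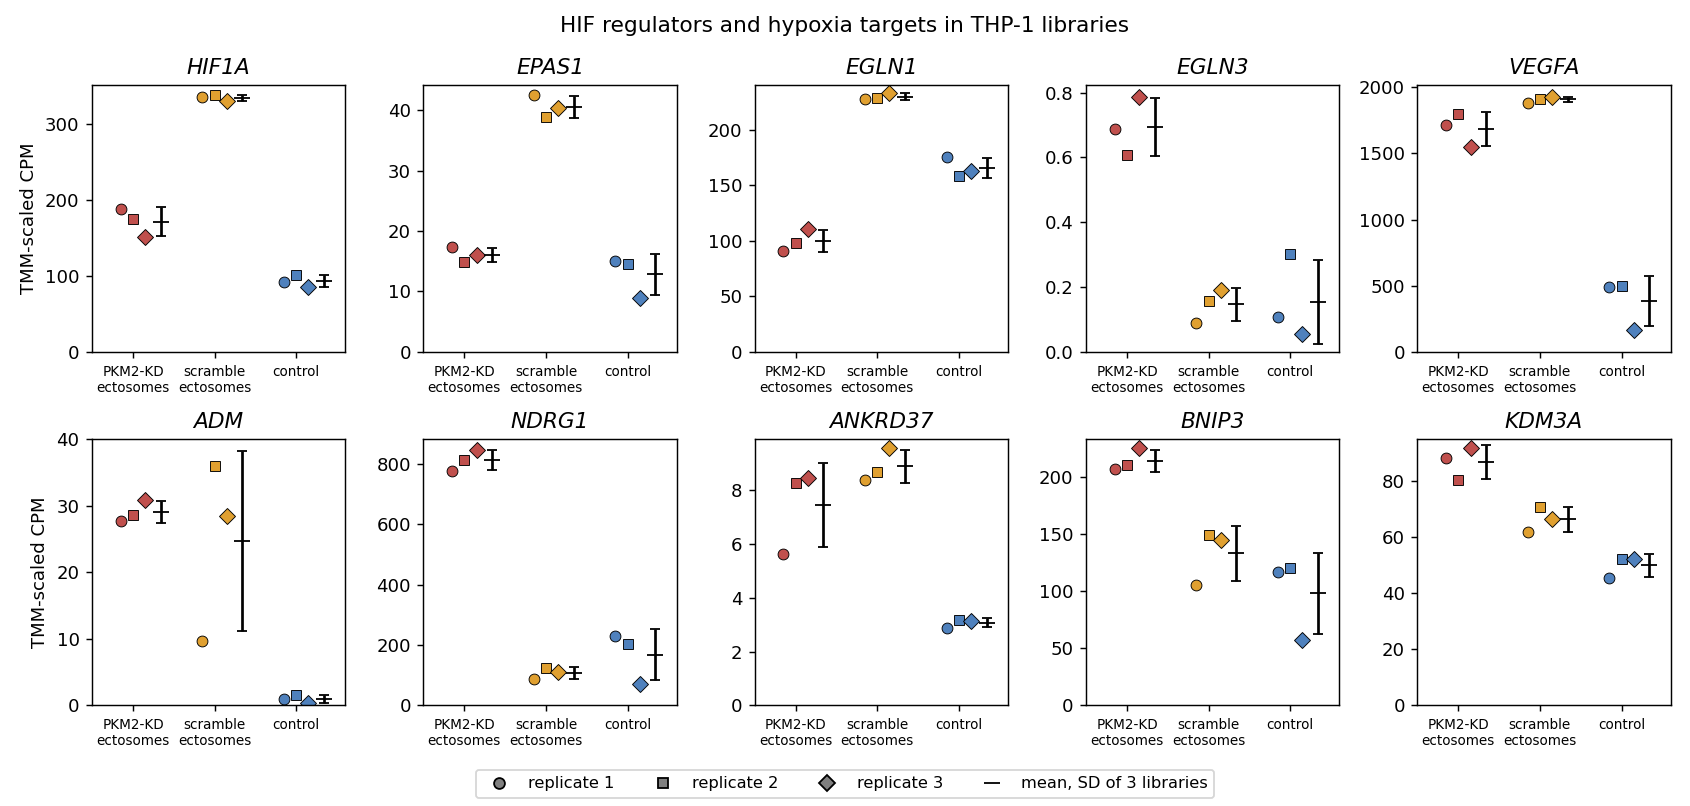
TMM-scaled CPM (y axis, linear and from 0) of each gene in each library, by group, with the mean and SD of the 3 libraries drawn beside them. HIF1A, EPAS1 and EGLN1 were highest in the scramble-ectosome libraries, NDRG1, BNIP3, KDM3A and EGLN3 in the PKM2-knockdown-ectosome libraries, and VEGFA, ADM and ANKRD37 were high with both.

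**Figure D3:**
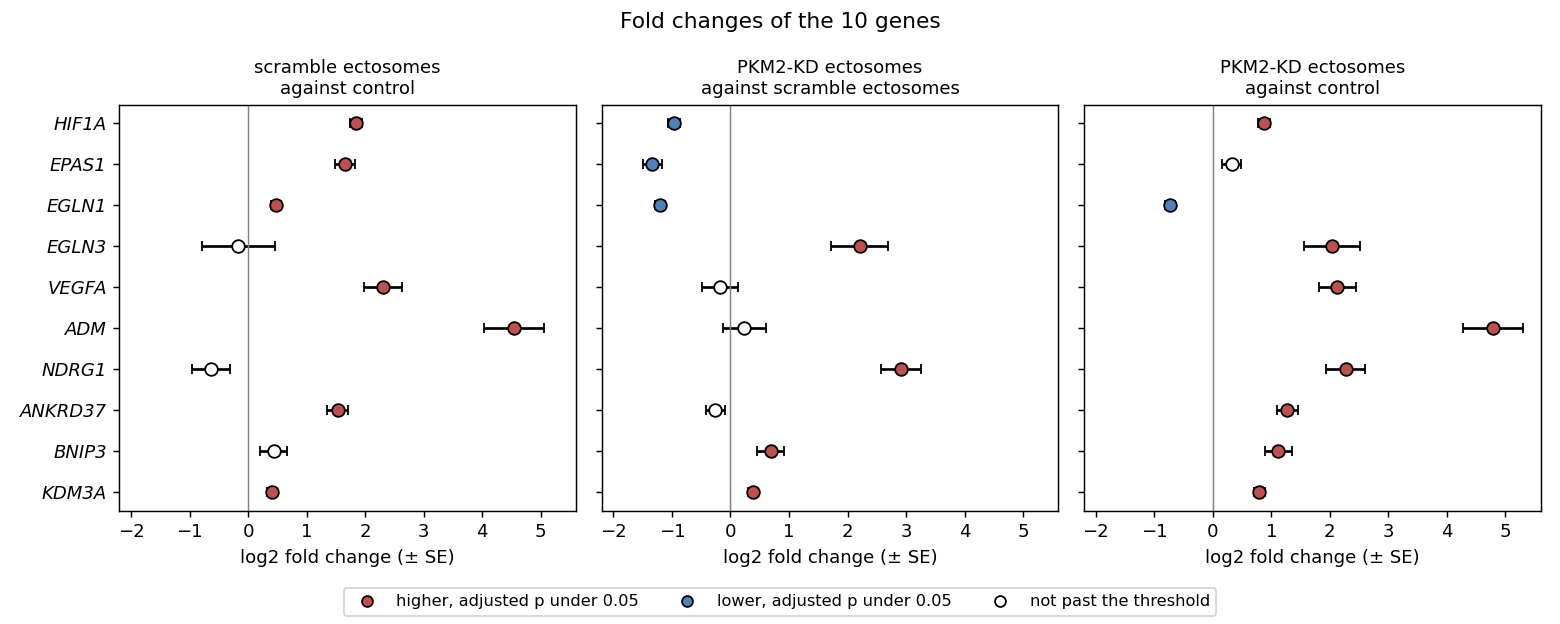
Log2 fold change with its SE (x axis) of the 10 genes in each of the 3 comparisons, where red points rose, blue points fell and white points did not pass the threshold. HIF1A, EPAS1 and EGLN1 lie to the left of 0 between the kinds of ectosomes, and NDRG1, EGLN3, BNIP3 and KDM3A to the right.

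The genes of the oxygen-regulated alpha subunits were highest with scramble ectosomes. HIF1A, the widely expressed alpha subunit gene (chromosome 14, 61695513 to 61748259, plus strand, GENCODE release 29 on GRCh38), held 188, 175 and 151 CPM with PKM2-knockdown ectosomes, 335, 338 and 330 CPM with scramble ectosomes, and 92.5, 101 and 85.7 CPM in control. The 3 groups did not overlap, and the control libraries were the lowest. HIF1A rose 3.59-fold with scramble ectosomes (log2FC 1.84, SE 0.10, adjusted p = 6.11e-08) and, with PKM2-knockdown ectosomes, 1.84-fold (log2FC 0.88, SE 0.10, adjusted p = 2.90e-05). It was 1.95-fold lower with PKM2-knockdown than with scramble ectosomes (log2FC -0.97, SE 0.10, adjusted p = 1e-05). An antisense gene, HIF1A-AS1, shares 117 exon bases with HIF1A and had 13 counts over the 9 libraries. In bulk RNA a smaller share of cells expressing a gene and less of its RNA per cell cannot be told apart, here and in every result below.

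EPAS1, which encodes the alpha subunit HIF-2 alpha, more restricted to certain cell types (chromosome 2, 46293667 to 46386703, plus strand), held 17.3, 14.9 and 16.0 CPM with PKM2-knockdown ectosomes, 42.5, 38.9 and 40.4 CPM with scramble ectosomes, and 15.1, 14.5 and 8.93 CPM in control. The scramble-ectosome libraries stood apart from both other groups, which overlapped. EPAS1 rose 3.16-fold with scramble ectosomes (log2FC 1.66, SE 0.17, adjusted p = 6.64e-06) and was 2.53-fold lower with PKM2-knockdown than with scramble ectosomes (log2FC -1.34, SE 0.16, adjusted p = 4.46e-05). Its level with PKM2-knockdown ectosomes was not shown to differ from control (log2FC 0.32, SE 0.17, adjusted p = 0.13). Levels of different genes are set beside each other per kilobase of merged exon. This scale is rough, as it counts the exons of every annotated transcript, whichever were made. On it HIF1A stood at 33.2 ± 3.66 CPM per kb with PKM2-knockdown ectosomes, 64.9 ± 0.787 with scramble ectosomes and 18.1 ± 1.51 in control, and EPAS1 at 2.20 ± 0.162, 5.56 ± 0.251 and 1.76 ± 0.464. The ratio of HIF1A to EPAS1 on that scale was 15.1 ± 1.65 with PKM2-knockdown ectosomes, 11.7 ± 0.591 with scramble ectosomes and 10.7 ± 2.55 in control. In control replicate 3 it was 13.6, against 8.71 and 9.91 in the other controls.

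Of the hydroxylase genes among the 10, EGLN1 was lower and the few reads of EGLN3 more numerous with PKM2-knockdown than with scramble ectosomes. EGLN1 encodes PHD2, the main HIF prolyl hydroxylase in most cells (chromosome 1, 231363751 to 231425044, minus strand), and its promoter is among those printed above. It held 90.9, 97.7 and 111 CPM with PKM2-knockdown ectosomes, 227, 228 and 233 CPM with scramble ectosomes, and 176, 159 and 162 CPM in control. The 3 groups did not overlap, with control between the other groups. EGLN1 rose 1.39-fold with scramble ectosomes (log2FC 0.47, SE 0.09, adjusted p = 0.000569) and fell 1.66-fold with PKM2-knockdown ectosomes (log2FC -0.73, SE 0.09, adjusted p = 4.77e-05). It was the only one of the 10 genes to fall with PKM2-knockdown ectosomes against control. Between the kinds of ectosomes it was 2.30-fold lower with PKM2-knockdown ectosomes (log2FC -1.20, SE 0.09, adjusted p = 1.12e-06).

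EGLN3 encodes PHD3, a hydroxylase whose gene is itself induced by HIF in many cells (chromosome 14, 33924231 to 34462774, minus strand). It was near the limit of detection, with 14, 13 and 15 reads with PKM2-knockdown ectosomes, 2, 3 and 4 reads with scramble ectosomes, and 2, 7 and 1 reads in control. Those are levels of 0.693 ± 0.0886, 0.146 ± 0.0516 and 0.154 ± 0.13 CPM, and every PKM2-knockdown-ectosome library lay above all others. The fitted level was 4.61-fold that with scramble ectosomes (log2FC 2.21, SE 0.49) and 4.10-fold that in control (log2FC 2.03, SE 0.48), or 7.98-fold without control replicate 2. Because the filter kept EGLN3 only for its reads with PKM2-knockdown ectosomes, the p-values of that fit are not given. In the fit with no filter on low counts the log2FC was 2.23 against scramble ectosomes (adjusted p = 0.00408) and 2.02 against control (adjusted p = 0.00842). Over all alternatives the log2FC of EGLN3 ran from 1.94 to 2.44 against scramble ectosomes and from 1.67 to 3.00 against control. The other alternatives used the filter, so their p-values are not given either. With scramble ectosomes against control its log2FC was -0.17 (SE 0.63), a value whose sign turned when control replicate 2 (0.79) or scramble replicate 1 (0.10) was left out, and with limma-voom (0.047). Per kilobase of merged exon EGLN1 stood at 13.7 ± 1.39 CPM per kb with PKM2-knockdown ectosomes, 31.6 ± 0.421 with scramble ectosomes and 22.8 ± 1.24 in control, while EGLN3 stood at 0.0942 ± 0.0120, 0.0199 ± 0.00701 and 0.0209 ± 0.0176.

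VEGFA, ADM and ANKRD37 rose with both kinds of ectosomes and did not differ past the threshold between them. VEGFA encodes the main angiogenic growth factor of the HIF response (chromosome 6, 43770184 to 43786487, plus strand). It held 1716, 1797 and 1546 CPM with PKM2-knockdown ectosomes, 1884, 1912 and 1926 CPM with scramble ectosomes, and 491, 500 and 165 CPM in control. Both ectosome groups lay above every control, and control replicate 3 held 33.3% of the mean of the other controls. VEGFA rose 4.95-fold with scramble ectosomes (log2FC 2.31, SE 0.32, adjusted p = 8.81e-05) and, with PKM2-knockdown ectosomes, 4.37-fold (log2FC 2.13, SE 0.32, adjusted p = 0.000259). Without control replicate 3 the log2FC with scramble ectosomes was 1.94. Every PKM2-knockdown-ectosome library was below every scramble-ectosome library, with a log2FC of -0.18 (SE 0.31, adjusted p = 0.638). That difference passed the threshold without control replicate 3 (log2FC -0.18, adjusted p = 0.00848) and when those groups were fitted without the controls (log2FC -0.16, adjusted p = 0.0159), in a range of adjusted p from 0.00848 to 0.992 over its alternatives.

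ADM, the gene of the vasodilator peptide adrenomedullin (chromosome 11, 10304680 to 10307397, plus strand), held 27.8, 28.6 and 30.9 CPM with PKM2-knockdown ectosomes, 9.74, 36.0 and 28.5 CPM with scramble ectosomes, and 1.01, 1.59 and 0.441 CPM in control. Scramble replicate 1 stood far below the other scramble libraries and still above every control. ADM rose 23.4-fold with scramble ectosomes (log2FC 4.55, SE 0.51, adjusted p = 1.55e-05) and, with PKM2-knockdown ectosomes, 27.6-fold (log2FC 4.78, SE 0.51, adjusted p = 2.23e-05), the largest folds among the 10 genes. Between the kinds of ectosomes the log2FC was 0.24 (SE 0.37, adjusted p = 0.599), and -0.15 without scramble replicate 1.

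ANKRD37 encodes an ankyrin repeat protein and is a known HIF-1 target (chromosome 4, 185396021 to 185400628, plus strand); its promoter, with 3 ACGTG matches, is printed above. It held 5.64, 8.24 and 8.43 CPM with PKM2-knockdown ectosomes, 8.38, 8.68 and 9.57 CPM with scramble ectosomes, and 2.87, 3.18 and 3.14 CPM in control. The ectosome groups overlapped each other and lay above every control, and control replicate 3 was level with the other controls. ANKRD37 rose 2.89-fold with scramble ectosomes (log2FC 1.53, SE 0.18, adjusted p = 1.85e-05) and, with PKM2-knockdown ectosomes, 2.42-fold (log2FC 1.27, SE 0.18, adjusted p = 0.000141). Between them the log2FC was -0.26 (SE 0.16, adjusted p = 0.193). ANKRD37 shares 909 exon bases with UFSP2 on the other strand, a gene with 1750 counts over the 9 libraries, and with the strand setting of the counting not given their reads cannot be told apart.

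NDRG1, BNIP3 and KDM3A were highest with PKM2-knockdown ectosomes. NDRG1, a stress-responsive gene widely used as a hypoxia marker (chromosome 8, 133237171 to 133302022, minus strand), held 778, 813 and 845 CPM with PKM2-knockdown ectosomes, 87.8, 125 and 111 CPM with scramble ectosomes, and 229, 203 and 71.9 CPM in control. The PKM2-knockdown-ectosome libraries lay far above all others, while control replicate 3 lay below every scramble-ectosome library and the other controls above them. NDRG1 was 7.52-fold higher with PKM2-knockdown than with scramble ectosomes (log2FC 2.91, SE 0.35, adjusted p = 3.52e-05), the largest difference between the kinds of ectosomes among the 10 genes. It was 4.82-fold higher with PKM2-knockdown ectosomes than in control (log2FC 2.27, SE 0.34, adjusted p = 0.000225). With scramble ectosomes against control its log2FC was -0.64 (SE 0.32, adjusted p = 0.101). NDRG1 fell without control replicate 3 (log2FC -1.01, adjusted p = 2.10e-08) and when scaled by library totals (-0.86, adjusted p = 0.0413), in a range of adjusted p from 2.10e-08 to 0.357.

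BNIP3 encodes a mitochondrial protein that promotes mitophagy (chromosome 10, 131966455 to 131982013, minus strand), and its promoter held the most motif matches of those examined. It held 207, 210 and 225 CPM with PKM2-knockdown ectosomes, 106, 149 and 145 CPM with scramble ectosomes, and 117, 120 and 57.5 CPM in control. The PKM2-knockdown-ectosome libraries lay above all others, and the other groups overlapped. BNIP3 was 2.18-fold higher with PKM2-knockdown ectosomes than in control (log2FC 1.12, SE 0.24, adjusted p = 0.00225) and 1.61-fold higher than with scramble ectosomes (log2FC 0.68, SE 0.23, adjusted p = 0.0254). This last call was lost without scramble replicate 1 (adjusted p = 0.107) and without PKM2-knockdown replicate 1, 2 or 3 (adjusted p = 0.0521, 0.0547 and 0.0707), in a range of 8.49e-07 to 0.107. The difference was then 1.45-fold without scramble replicate 1 and 1.64-fold, 1.63-fold and 1.57-fold without each PKM2-knockdown library, close in size to that with all libraries. With scramble ectosomes against control the log2FC was 0.44 (SE 0.23, adjusted p = 0.120). Processed pseudogenes resemble BNIP3, of which BNIP3P11 had the most reads, 518 over the 9 libraries, so some reads may have been exchanged. BNIP3 itself had 13008 reads with PKM2-knockdown ectosomes, 8204 with scramble ectosomes and 6040 in control.

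KDM3A encodes a histone H3 lysine demethylase that uses oxygen and is a HIF-1 target (chromosome 2, 86440647 to 86492716, plus strand). It held 88.3, 80.3 and 91.9 CPM with PKM2-knockdown ectosomes, 62.0, 70.8 and 66.5 CPM with scramble ectosomes, and 45.4, 52.1 and 52.4 CPM in control. The 3 groups did not overlap, and the ectosome groups were the higher ones. KDM3A rose 1.74-fold with PKM2-knockdown ectosomes (log2FC 0.80, SE 0.09, adjusted p = 3.23e-05) and 1.33-fold with scramble ectosomes (log2FC 0.41, SE 0.09, adjusted p = 0.00186). It was 1.31-fold higher with PKM2-knockdown than with scramble ectosomes (log2FC 0.39, SE 0.09, adjusted p = 0.00302). With scaling by library totals alone the rise with scramble ectosomes no longer passed the threshold (log2FC 0.20, adjusted p = 0.0618), in a range of adjusted p from 7.47e-05 to 0.0618.

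Per kilobase of merged exon, VEGFA had the highest mean of the 10 genes in every group, at 117 ± 8.87 CPM per kb with PKM2-knockdown ectosomes, 132 ± 1.49 with scramble ectosomes and 26.7 ± 13.2 in control. NDRG1 followed it with PKM2-knockdown ectosomes at 82.7 ± 3.40 CPM per kb, against 10.99 ± 1.92 with scramble ectosomes and 17.1 ± 8.60 in control. BNIP3 stood at 40.2 ± 1.84, 25.0 ± 4.51 and 18.5 ± 6.64 CPM per kb in the same order of groups. With scramble ectosomes the genes next below VEGFA were HIF1A, EGLN1 and BNIP3. In control, VEGFA, EGLN1, BNIP3, HIF1A and NDRG1 lay within 1 SD of VEGFA's mean. ADM stood at 10.7 ± 0.605 CPM per kb with PKM2-knockdown ectosomes, 9.10 ± 4.97 with scramble ectosomes and 0.373 ± 0.211 in control.

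Other genes of the HIF pathway were examined as a list of 17, of which 15 had enough reads to be tested. This list, too, was chosen with earlier results of these data known. With scramble ectosomes 8 rose and 4 fell, the median log2FC being 0.47 beside -0.0063 over all genes. Between the kinds of ectosomes 4 were higher and 7 lower with PKM2-knockdown ectosomes (median -0.10, beside 0.029 over all genes). Against control with PKM2-knockdown ectosomes 6 rose and 3 fell (median 0.086, beside -0.0072). In the comparison of the kinds of ectosomes the count higher was 2 without scramble replicate 2, scramble replicate 3 or PKM2-knockdown replicate 2, and the count lower was 7 in each case. Over all genes the count higher was then 5193, 5113 and 5192, against 5782 with all libraries. With scaling by library totals alone 6 rose and 5 fell with PKM2-knockdown ectosomes against control. Over all genes 4706 then rose and 5270 fell, against 4978 and 4926 with TMM. The changed shares were 80.0%, 73.3% and 60.0%, where 67.8%, 61.6% and 53.7% of all genes changed in the same comparisons.

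ARNT, the stable partner of the alpha subunits, stood at 117 ± 5.73 CPM with PKM2-knockdown ectosomes, 100.5 ± 2.81 CPM with scramble ectosomes and 110 ± 5.83 CPM in control. It was 1.17-fold higher with PKM2-knockdown than with scramble ectosomes (adjusted p = 0.0214) and was not shown to differ from control with either kind (adjusted p = 0.334 with PKM2-knockdown and 0.126 with scramble ectosomes); it was named after its values were seen. The coactivators CREBBP and EP300 and the gene VHL had their highest level with scramble ectosomes, as HIF1A did. CREBBP, a histone acetyltransferase that HIF recruits as a coactivator, stood at 95.6 ± 6.31 CPM with PKM2-knockdown ectosomes, 268 ± 16.2 with scramble ectosomes and 97.1 ± 8.39 in control. It rose 2.76-fold with scramble ectosomes (adjusted p = 1.78e-07) and was 2.80-fold lower with PKM2-knockdown than with scramble ectosomes (adjusted p = 3.61e-07). Its relative EP300 stood at 217 ± 17.9, 305 ± 26.7 and 148 ± 7.25 CPM, rising 2.06-fold with scramble ectosomes (adjusted p = 2.88e-06) and, with PKM2-knockdown ectosomes, 1.47-fold (adjusted p = 0.000507). VHL, the subunit of the ubiquitin ligase that recognises hydroxylated HIF alpha, stood at 166 ± 3.01, 291 ± 6.21 and 123 ± 10.3 CPM, rising 2.37-fold with scramble ectosomes (adjusted p = 2.12e-07) and, with PKM2-knockdown ectosomes, 1.36-fold (adjusted p = 0.000773).

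Other pathway genes followed different patterns. EGLN2, another HIF prolyl hydroxylase gene, stood at 20.4 ± 1.46 CPM with PKM2-knockdown ectosomes, 11.9 ± 1.33 with scramble ectosomes and 14.5 ± 0.856 in control. It was 1.71-fold higher with PKM2-knockdown than with scramble ectosomes (adjusted p = 0.000166). Against control it rose 1.41-fold with PKM2-knockdown ectosomes (adjusted p = 0.00386) and fell 1.22-fold with scramble ectosomes (adjusted p = 0.048). EGLN2 was named after its values were seen. CITED2, which competes with HIF alpha for CREBBP and EP300, fell with both kinds of ectosomes, to 151 ± 12.3 CPM with PKM2-knockdown ectosomes (2.54-fold, adjusted p = 1.59e-06) and 156 ± 3.14 CPM with scramble ectosomes (2.45-fold, adjusted p = 7.89e-07), against 383 ± 43.7 CPM in control. P4HTM, a membrane-bound prolyl hydroxylase, also fell with both, to 23.2 ± 1.34 CPM (1.81-fold, adjusted p = 7.64e-05) and 19.6 ± 1.70 CPM (2.15-fold, adjusted p = 6.12e-06), against 42.0 ± 4.83 CPM in control. LIMD1, a scaffold that brings PHD2 and VHL together, rose with both, at 161 ± 7.32 CPM with PKM2-knockdown ectosomes (2.77-fold, adjusted p = 5.09e-07), 107 ± 3.88 CPM with scramble ectosomes (1.83-fold, adjusted p = 7.99e-06) and 58.3 ± 6.44 CPM in control.

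Other hypoxia targets formed a list of 40 genes, of which 38 were tested, and most of these were higher with PKM2-knockdown ectosomes than in control. In that comparison 32 rose and 1 fell (86.8% changed, against 53.7% of all genes), the median log2FC being 1.29 beside -0.0072 over all genes. The list was chosen with earlier results of these data known, so its counts and medians beside those of all genes are descriptions. Some of its genes had few reads, such as CA12 with 2, 1 and 0 and BHLHE41 with 6, 2 and 0 in control. The reads of these genes lay mostly in the ectosome libraries. The filter check made for EGLN3 was not made for the list, and CA12 and BHLHE41 are among the genes counted as risen with each kind of ectosomes. With scramble ectosomes 21 rose and 8 fell (76.3% changed, against 67.8% of all genes), with a median of 0.47 beside -0.0063. Between the kinds of ectosomes 19 were higher and 3 lower with PKM2-knockdown ectosomes (57.9% changed, against 61.6% of all genes, of which 31.4% were higher and 30.3% lower), with a median of 0.70 beside 0.029. The count lower was 1 when any 1 of the 6 ectosome libraries was left out, and the count higher was then 19 to 21. Over all genes 5113 to 5370 were then higher and 4988 to 5179 lower, against 5782 and 5583 with all libraries. Without control replicate 3 the counts were 32 and 1, 22 and 11, and 25 and 4 in the same order, and without scramble replicate 1 they were 32 and 2, 21 and 7, and 20 and 1. Calls over all genes, in that order, were 10996, 13640 and 13617 without control replicate 3. They were 9555, 11484 and 10218 without scramble replicate 1, against 9904, 12492 and 11365 with all libraries. With scaling by library totals alone the counts of the targets were 32 and 2, 17 and 8, and 26 and 1. That scaling moved the median log2FC of all genes to -0.21 with scramble ectosomes against control and to 0.20 between the kinds of ectosomes, and the share of all calls that were rises to 40.2% and 61.9%, where TMM gave 51.0% and 50.9%.

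Some of these targets were raised with both kinds of ectosomes, as VEGFA and ADM were. BHLHE40, a transcriptional repressor of the circadian and hypoxic responses, stood at 295 ± 15.5 CPM with PKM2-knockdown ectosomes, 258 ± 48.6 CPM with scramble ectosomes and 36.9 ± 9.95 CPM in control, rising 7.98-fold (adjusted p = 9.29e-07) and 6.98-fold (adjusted p = 5.20e-07). SLC2A1, the glucose transporter GLUT1, stood at 806 ± 155, 692 ± 92.8 and 204 ± 20.8 CPM, rising 3.96-fold (adjusted p = 2.06e-06) and 3.40-fold (adjusted p = 1.84e-06). ERO1A, an oxidase of protein folding in the endoplasmic reticulum, rose 2.44-fold with PKM2-knockdown ectosomes (adjusted p = 2.61e-07) and 2.34-fold with scramble ectosomes (adjusted p = 1.14e-07). JMJD6, an oxygen-dependent hydroxylase of nuclear proteins, rose 2.45-fold (adjusted p = 2.16e-05) and 3.16-fold (adjusted p = 1.54e-06). It was 1.29-fold lower with PKM2-knockdown than with scramble ectosomes (adjusted p = 0.0324). HIGD1A and STC2 were also lower in that comparison (1.63-fold and 2.65-fold, adjusted p = 0.000392 and 0.0292). TFRC fell with both kinds of ectosomes against control. HIGD1A, STC2 and TFRC were named after their values were seen.

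Others were highest with PKM2-knockdown ectosomes, as NDRG1 was. PPFIA4, a member of the liprin family, stood at 82.2 ± 2.01 CPM with PKM2-knockdown ectosomes, 11.2 ± 1.91 CPM with scramble ectosomes and 45.8 ± 3.62 CPM in control. It rose 1.80-fold with PKM2-knockdown ectosomes (adjusted p = 9.33e-05), fell 4.09-fold with scramble ectosomes (adjusted p = 1.16e-07) and was 7.34-fold higher with PKM2-knockdown than with scramble ectosomes (adjusted p = 3.85e-08). WSB1, a substrate adaptor of a ubiquitin ligase, stood at 362 ± 34.9, 152 ± 5.48 and 217 ± 18.95 CPM, rising 1.66-fold with PKM2-knockdown ectosomes (adjusted p = 8.53e-05) and falling 1.43-fold with scramble ectosomes (adjusted p = 0.000622). PFKFB4, a regulator of glycolysis, and PLOD2, a collagen lysyl hydroxylase, were named after their values were seen. PFKFB4 held 140, 147 and 173 CPM with PKM2-knockdown ectosomes, 24.6, 29.3 and 25.8 CPM with scramble ectosomes, and 40.5, 38.05 and 10.6 CPM in control, and was 5.77-fold higher with PKM2-knockdown than with scramble ectosomes (adjusted p = 0.000145). PLOD2 held 91.6, 82.3 and 83.0 CPM, 16.5, 24.2 and 18.8 CPM, and 24.2, 23.6 and 6.62 CPM in the same groups, and was 4.32-fold higher with PKM2-knockdown than with scramble ectosomes (adjusted p = 0.000387). In control replicate 3 both stood far below the other controls, and without that library PFKFB4 and PLOD2 fell with scramble ectosomes (log2FC -0.57 and -0.27, adjusted p = 2.89e-05 and 0.0406, in ranges up to 0.951 and 0.943).

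**Figure D4:**
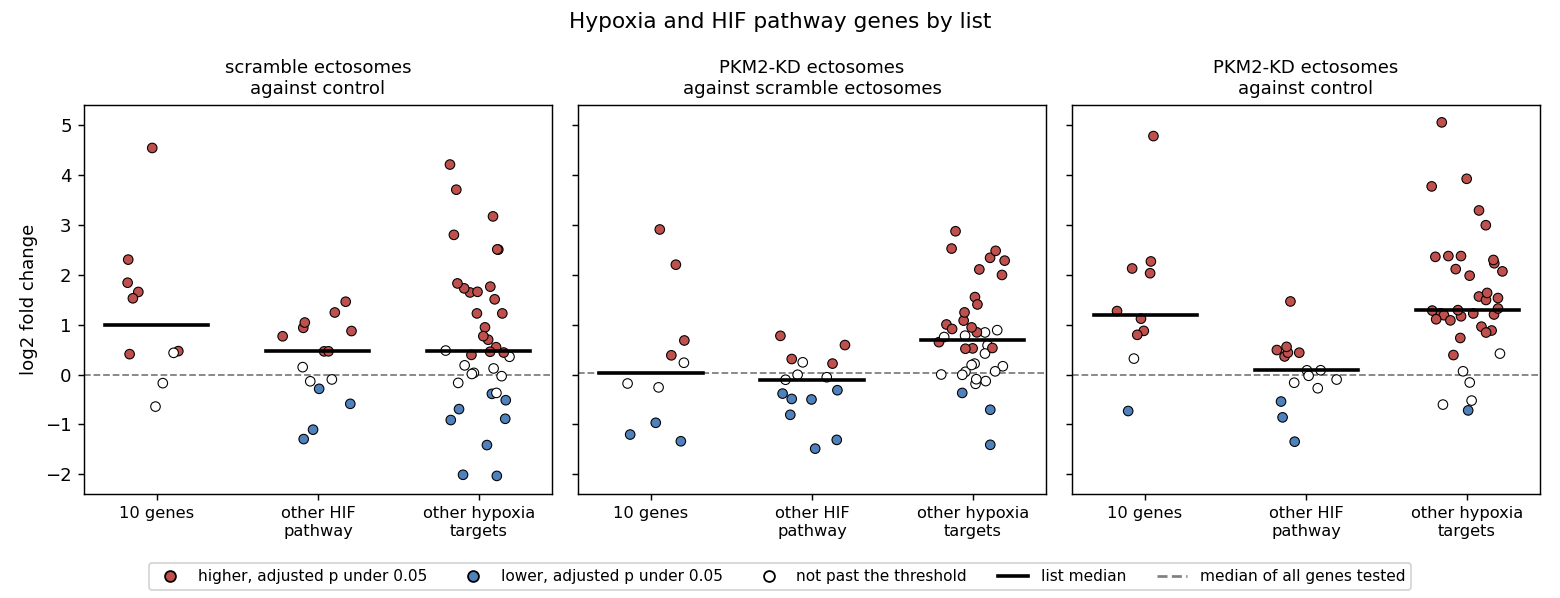
Log2 fold changes (y axis) of the 10 genes, 15 other HIF pathway genes and 38 other hypoxia targets in the 3 comparisons, each point a gene, red where it rose, blue where it fell and white where it did not pass the threshold. Black bars are list medians and the dashed line is the median of all genes tested. With PKM2-knockdown ectosomes against control 32 of the 38 other targets are red, where 27.0% of all genes tested rose. The lists were chosen with earlier results of these data known.

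The genes whose levels followed each of the 10 most closely over the 9 libraries were sought among 9671 genes with a mean of at least 10 CPM, by Pearson's r of log2(CPM + 1). These coefficients are descriptions, as the points share the 3 groups and differ mostly by group. For HIF1A they were RAB5A (0.9985) and MYO5A (0.9981), for EPAS1 AP4E1 (0.9975) and MARK3 (0.9954), and for EGLN1 REEP4 (0.9964) and NGRN (0.9955). VEGFA was followed most closely by OASL (0.9985) and HELZ2 (0.9982), ADM by BHLHE40 (0.9866) and ARHGAP18 (0.981), and ANKRD37 by DYNLT1 (0.9836) and RHOG (0.9825). For NDRG1 they were GPI (0.9949) and MRAS (0.9944), for BNIP3 HK2 (0.9841) and CCNG2 (0.9838), for KDM3A RAP1A (0.9805) and TMEM138 (0.9789), and for EGLN3 DHRS1 (0.9827) and PIK3C3 (0.9801). EGLN3 itself was near the limit of detection, so its coefficients rest on few reads. BHLHE40 and HK2 also belong to the list of other hypoxia targets. OASL stood at 39.3 CPM with PKM2-knockdown ectosomes, 46.3 CPM with scramble ectosomes and 4.07 CPM in control. GPI, a glycolytic isomerase, stood at 618, 211 and 242 CPM in the same groups.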

How the data were processed

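RNA-seq libraries of THP-1 cells (3 groups of 3) were analysed from the raw read counts per gene symbol that the authors deposited, with no normalization. The submitters' processing notes list featureCounts 1.5.0-p3, HISAT2 2.0.5 and the GRCh38 build. Annotation release, strand setting and filters: not given in the sources used here. RNA was extracted with Trizol and libraries were made with an NEBNext Ultra kit, per the labels' protocols.

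The first row of each symbol was taken. Of 30000 rows, 18437 passed filterByExpr by group and held at least 99.85% of each library's counts (library totals 17744587 to 23864381). Levels are TMM-scaled CPM computed here. All 9 libraries entered 1 edgeR 4.0.16 quasi-likelihood model (R 4.3.3) with group as the only term (residual df 6). The biological coefficient of variation over all genes was 13.3%. Tests were two-sided, and a call needed a Benjamini-Hochberg adjusted p below 0.05 across the tested rows. SEs were approximated by dividing the size of the log2 fold change by the root of its F statistic. The fit was also run on simulated data in which few genes changed and every gene had the same spread. In the data here most genes tested were called in each comparison. That run therefore does not check the TMM assumption or the effect of unlike replicates. Alternatives were library totals, DESeq2 1.42.0 size factors and its Wald test, limma-voom (limma 3.58.1), no filter, fitting only the groups compared, a replicate block, and leaving out each library.

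The members and lists were chosen with earlier results of these data known. Genes named were all members, up to 6 per list by smallest p in any comparison, and the 2 genes most like each member. Coordinates and exon lengths are from GENCODE release 29 (GRCh38), and promoters from RefSeq (GRCh38.p14). Motifs were searched in the 250 bases before each start.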

Additional observations from a re-analysis of the deposited data

Results flagged for a closer look

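The edgeR quasi-likelihood test compared PKM2-knockdown with scramble ectosomes. Of the 9 genes other than EGLN3, 3 passed its threshold as higher and 3 as lower with PKM2-knockdown ectosomes. Of all genes tested 61.6% passed it, so the count alone does not set these genes apart. With 1 shared control, this contrast equals the difference of their effects against control. Those lower with PKM2-knockdown ectosomes were HIF1A (log2 fold change -0.97), EPAS1 (-1.34) and EGLN1 (-1.20). Those higher with PKM2-knockdown ectosomes were EGLN3 (2.21), NDRG1 (2.91), BNIP3 (0.68) and KDM3A (0.39). EGLN1 is the gene that rose with scramble ectosomes and fell with PKM2-knockdown ectosomes against control. EGLN3 had passed the filter on low counts only through its reads with PKM2-knockdown ectosomes, so its value (2.21) is a description and not support for a difference.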

How the results depend on the processing

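Over 16 alternatives the counts of changed genes stayed within 1.5 times of those reported, for the 9 genes other than EGLN3, both lists and all genes. Of these 9 genes, 77.8% to 88.9% changed with scramble ectosomes against control and 55.6% to 77.8% between the kinds of ectosomes. With PKM2-knockdown ectosomes against control 88.9% changed in every alternative. The replicate numbers did not pair the libraries: correlations of same-numbered deviations ran from -0.094 to 0.067, and a library correlated best with its own number in 6 of 18 cases. With a replicate block, 7 of the 9 genes rose and 0 fell with scramble ectosomes against control. Between the kinds of ectosomes 3 were higher and 3 lower, and 7 rose and 1 fell with PKM2-knockdown ectosomes against control. Of all genes 12178, 11035 and 9401 were then called in these comparisons. Signs turned only for differences that had not passed the threshold. With library totals alone PLOD2 stood at -0.096 with scramble ectosomes against control and CITED2 at 0.12 between the kinds of ectosomes, and with limma-voom EGLN3 and PFKFB4 stood at 0.047 and 0.030 with scramble ectosomes against control. Leaving out 1 library gave log2 fold changes of -0.53 to 0.79 for EGLN3, -0.57 to 0.11 for PFKFB4 and -0.27 to 0.37 for PLOD2 with scramble ectosomes against control, -0.15 to 0.61 for ADM and -0.091 to 0.016 for CITED2 between the kinds of ectosomes, and -0.077 to 0.043 for CREBBP with PKM2-knockdown ectosomes against control. The causes were not tested. EGLN3 had no value with scramble ectosomes and control fitted alone, as it then failed the filter. JMJD6 was lower with PKM2-knockdown than with scramble ectosomes (log2 fold change -0.37, adjusted p = 0.0324), a call lost in 7 alternatives. Depth limits EGLN3, which had 42 reads in all with PKM2-knockdown ectosomes, 9 with scramble ectosomes and 10 in control.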
